A study of Mus musculus with 14 samples.

Results

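The comparison is between 14 arrays given as mouse epididymal fat, parted by the signal of a single transcript. Gpx5 encodes a glutathione peroxidase secreted by the epithelium of the epididymis, the coiled duct behind the testis to which this fat pad is attached. The arrays were chosen by their measured Gpx5 signal: 10 of the 14 had a signal of 2000 or more (called the Gpx5-high arrays here) and 4 had less (the Gpx5-low arrays). The description covers every probe set, the group of probes that reads one transcript, that is assigned to 1 gene, with Gpx5 itself left out. Because the arrays were parted by values measured on them, the differences between the 2 sets are given as sizes with standard errors and array values, and they carry no p-value.

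The mice were of the ICR strain, labelled male and sampled at 3 weeks of age. CC mice (n = 5) had dams fed freely in pregnancy and lactation. UC mice (n = 5) had dams held to a 50% food restriction in pregnancy and were then nursed by freely fed dams. UU mice (n = 4) had dams under the 50% restriction in pregnancy and throughout suckling. The labels name neither litters nor dams, so p-values for feeding treat each array as an independent mouse and may rest partly on shared litters. Precision is set by how few arrays there are: high minus low differences had a median standard error of 0.21 on the log2 scale.

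The Gpx5-low arrays were CC2, CC4, UC2 and UC5, where the number is the replicate. Gpx5 itself had signals of 410, 828, 857 and 1155 on them. On the other 10 arrays it ran from 5711 (UU1) to 69624 (UC1). No array lay between 1155.1 and 5710.8, the values just outside and just inside the limit. The low arrays made up 2 of 5 CC, 2 of 5 UC and 0 of 4 UU arrays, and Fisher's exact test of the 3 groups (two-sided) gave p = 0.451, which does not show that the groups held them evenly. With no low array in UU, a fit that keeps feeding group as a covariate takes the high minus low difference from CC (3 against 2 arrays) and UC (3 against 2 arrays) alone.

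Several arrays stood apart in ways that touch the results. CC2 and UC5, both Gpx5-low, went against their male labels. Xist, the RNA that coats the inactive X chromosome of female cells, had signals of 3981 and 5642 there and at most 1324 on the other 12 arrays. The Y-linked Eif2s3y had signals of 58.6 and 7.9 there and of 1235 or more elsewhere. Results are therefore given for all 14 arrays and, for those most affected, without these 2, which leaves CC4 and UC2 as the low set. Whether CC2 and UC5 came from epididymal pads of male mice was not tested. They cannot be taken to stand for such pads without epididymal epithelium. UC2 also carried a strong signal of Alb, the liver's albumin transcript (25660 against at most 3190.5 elsewhere). Acta1, a skeletal muscle actin, was at 7453 on CC2 and 9065 on the Gpx5-high CC5. The log2 ratio of 3' over 5' signal of Gapdh and Actb, a sign of RNA degradation, was highest on the Gpx5-high arrays UU3 (2.10), UC1 (1.63) and UC4 (1.59).

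The epididymis takes up fluid from the testis and secretes proteins that coat and protect sperm. Its duct is lined by a sealed epithelium of principal, narrow or clear, and basal cells within a sleeve of smooth muscle. The secreted proteins differ along the duct, and Gpx5, Adam7 and several lipocalins are products of its first part, the caput. White fat consists mainly of adipocytes with blood vessels, fibroblasts and macrophages between them. The 2 tissues adjoin each other in the mouse, and a dissected fat pad can hold both. In RNA from whole tissue, fewer cells of a type and less RNA per cell cannot be told apart.

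The start regions of 3 genes are shown because they are among the transcripts that set the 2 sets of arrays farthest apart: Gpx5, which parted the arrays, Lcn5, a lipocalin that carries retinoids in the caput, and Pate6, a small secreted protein of the Ly6 type. Each run is the 250 bases before the annotated start of the transcript, 5′ to 3′ on the gene's own strand, from RefSeq on build GRCm38.p6. Capitals mark matches to 3 short motifs searched on both strands. The TATA box was searched as the letters TATAAA. A core element bound by the androgen receptor, on which many caput genes depend, was searched as AGAACA. A core bound by ETS factors such as Ehf and Elf3 was searched as AGGAAG. Gpx5 lies at chr13:21292687-21292936 on the minus strand, Lcn5 at chr2:25657702-25657951 on the plus strand and Pate6 at chr9:35790113-35790362 on the minus strand.
Gpx5: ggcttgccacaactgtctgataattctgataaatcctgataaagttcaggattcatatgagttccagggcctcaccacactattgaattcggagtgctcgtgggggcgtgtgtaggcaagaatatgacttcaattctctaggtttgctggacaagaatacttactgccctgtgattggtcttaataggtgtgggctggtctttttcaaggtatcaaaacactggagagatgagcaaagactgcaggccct
Lcn5: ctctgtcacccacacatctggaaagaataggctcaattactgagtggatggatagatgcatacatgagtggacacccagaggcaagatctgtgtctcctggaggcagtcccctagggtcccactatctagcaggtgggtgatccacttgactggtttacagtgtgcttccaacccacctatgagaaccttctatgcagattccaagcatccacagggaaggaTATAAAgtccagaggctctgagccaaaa
Pate6: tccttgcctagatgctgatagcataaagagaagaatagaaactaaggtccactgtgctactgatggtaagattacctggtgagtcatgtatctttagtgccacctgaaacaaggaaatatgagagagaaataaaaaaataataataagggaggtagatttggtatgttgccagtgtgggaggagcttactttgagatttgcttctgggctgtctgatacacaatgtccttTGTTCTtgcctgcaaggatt
Lcn5 held a TATA box beginning 28 bases before its start, Pate6 held the androgen element on the opposite strand beginning 20 bases before its start, and the Gpx5 window held none of the 3 strings. The matches did not overlap each other. Over 150 genes with a window among those called higher in the Gpx5-high arrays, 13.3% held the androgen element, 32% the ETS core and 8.7% the TATA box. Over all 6613 described genes with a window the shares were 13.1%, 32.1% and 8.5%. Over all 27025 genes in the table they were 18.2%, 32.3% and 14.3%. The windows of the called genes thus held these strings about as often as those of other genes on the array.

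A probe set was called higher or lower where its log2 difference, taken from a linear model with feeding group, was at least 1 and the 10 high and 4 low arrays did not overlap. Values were log2(signal + 32), and the dimmest 40% of probe sets were left out. Of 12227 probe sets, 258 (2.11%) were called higher in the Gpx5-high arrays and 15 (0.123%) lower. At 1 probe set per gene, 199 of 8163 genes (2.44%) were higher and 10 (0.123%) lower. The differences of the 199 genes ran from 1.001 to 8.06 with a median of 1.84, and those of the 10 from -1.001 to -1.67 with a median of -1.12. The median over all genes was -0.002. Of the 258 probe sets, 240 were also called without CC2 and UC5, and 237 had a difference of at least 1 within CC and within UC alike. Of the 15 lower probe sets, 9 were also called without CC2 and UC5, and 6 had a difference of -1 or less within CC and within UC alike. Leaving out low arrays cannot make separate sets overlap, so only the least difference of 1 could undo a call without the pair. The counts of 240 and 9 thus describe sizes and do not show that the calls repeat. Over genes, 238 (2.92%) were called higher and 11 (0.135%) lower without the pair, where the rule of no overlap is easier to meet with only 2 low arrays. The lower count rested on few arrays: it was 23 probe sets without CC1, 29 without CC4, 42 without UC4 and 75 without UC2, and 36 without the feeding covariate, while the higher count was 254 to 356 with any 1 array left out.

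The filter on dim values kept probe sets by their mean over the 14 arrays, 10 of which were Gpx5-high. A gene high only in the Gpx5-high arrays could pass where a gene high only in the Gpx5-low arrays did not, so counts and medians over the genes that passed lean towards the high set. Each epithelial list and the adipocyte list are therefore also given over every member on the array. For other lists of the fat pad, the medians over every member were -0.65 for fatty acid oxidation, -0.73 for macrophages, -0.41 for endothelium and -0.29 for fibroblasts and matrix. Without the filter, 231 of 12392 genes (1.86%) were called higher and 18 (0.145%) lower, and the median over all of them was -0.02. Without the filter and without CC2 and UC5, 330 of the 12392 were called higher and 43 lower, again with fewer low arrays to overlap.

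The largest differences belonged to genes of the epididymal epithelium. Adam7, a membrane protein of the ADAM family that the caput passes to sperm, had signals of 119.1 (CC2), 21.3 (CC4), 34.4 (UC2) and 25.1 (UC5) on the low arrays. On the high arrays it ran from 9173 through a median of 19657 to 27882, so the sets lay far apart. Its log2 difference was 8.06 ± 0.29 (SE), or 266-fold on the log2(signal + 32) scale, which understates folds of dim genes. Lcn5 had signals of 27.5, 166.5, 13.9 and 29.9 on CC2, CC4, UC2 and UC5. Its high arrays ran from 4021 through 13273 to 25325 and its difference was 7.56 ± 0.45. Both transcripts were dim on all 4 low arrays. Pate6 had signals of 144.5, 271.5, 217.0 and 554.5 on the low arrays and of 4173 to 35652 on the high arrays, with a difference of 6.22 ± 0.44.

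**Figure D1:**
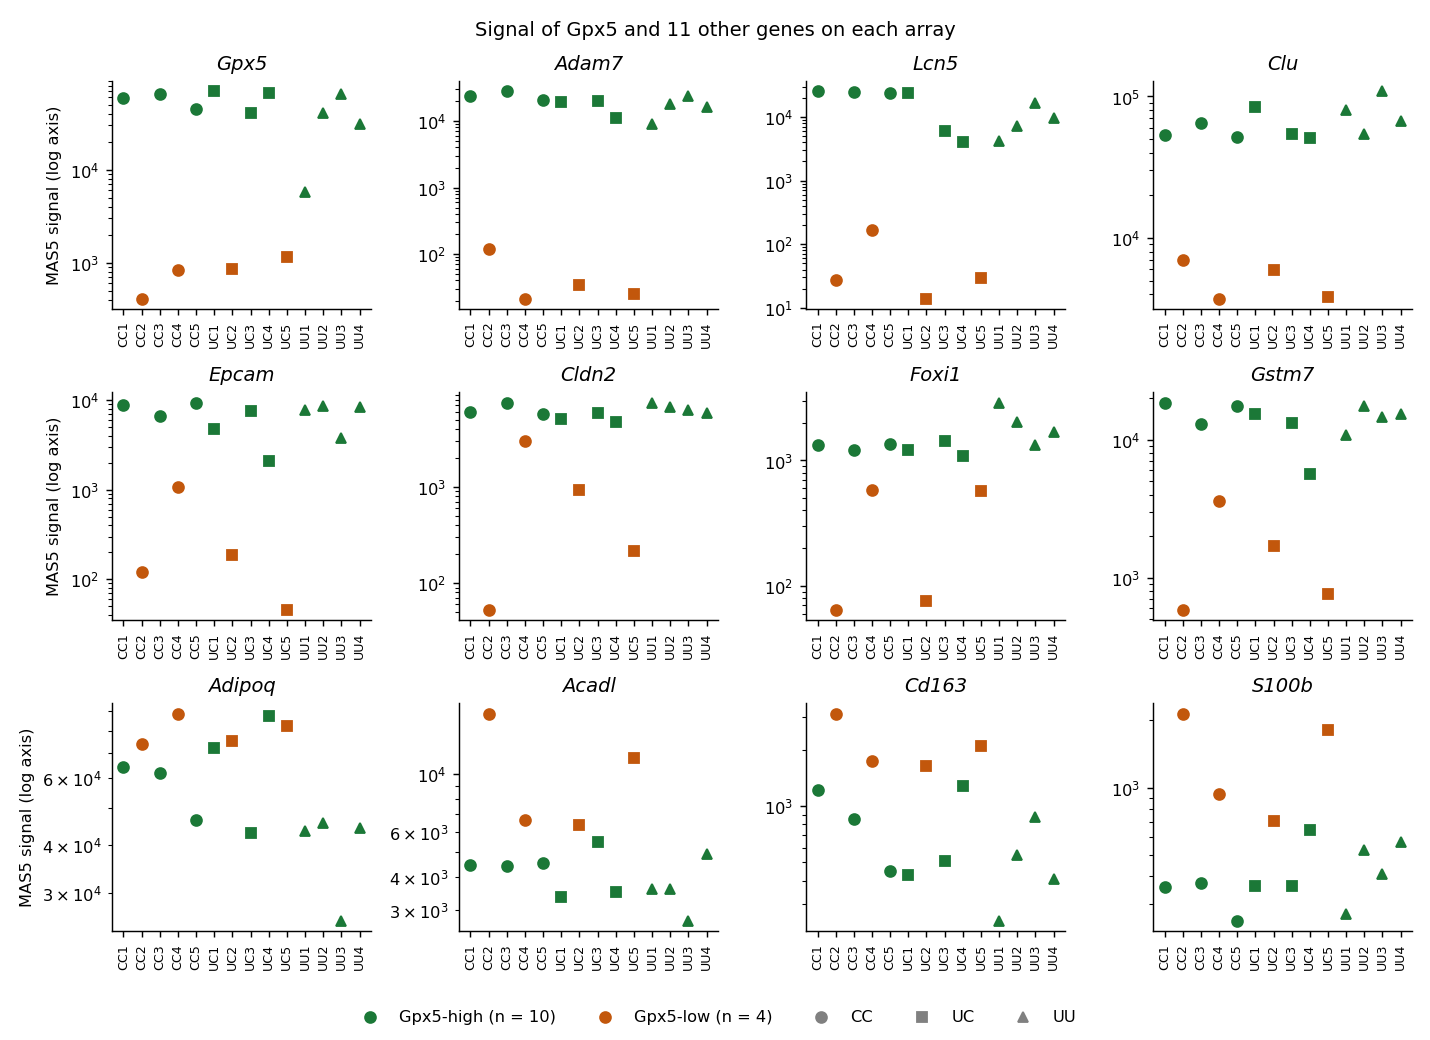
Signal (log axis) of Gpx5 and 11 other genes on each of the 14 arrays, with 1 point per array, green for Gpx5-high and orange for Gpx5-low, and the marker shape giving the feeding group. Adam7 and Lcn5 lie at 166.5 or less on the 4 orange arrays, Cldn2 reaches 3007 and Gstm7 3617 on CC4, and Adipoq overlaps between the sets.

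Among 65 listed secreted proteins of the epididymis, 21 were on the array and 13 passed the filter on dim values. Over all 21, 9 were called higher and 0 lower, 19 lay above 0 and the median difference was 1.39. The 9 called genes were all among the 13 that passed, whose median was 2.64. Passing and differing are not independent for such genes. Cst11, a cystatin that inhibits cysteine proteases, differed by 5.06 ± 0.64. Defb1 and Wfdc15b are antimicrobial proteins, of the β-defensin and whey acidic protein families. Defb1 was at 136.2, 421.3, 266.8 and 262.3 on CC2, CC4, UC2 and UC5, against 3810 to 15022, a difference of 4.19 ± 0.27. Wfdc15b differed by 3.72 ± 0.35. Clu, the chaperone clusterin that is shed onto sperm, was at 7003, 3726, 5987 and 3809 on the low arrays and at 50497 to 108573 on the high ones. Its difference was 3.57 ± 0.23. Npc2, a cholesterol carrier of epididymal fluid that many tissues make, overlapped between the sets with a difference of 0.28 ± 0.23. Genes outside that list but among the largest differences included Defb2, another β-defensin (5.19 ± 0.51), and Lcn2, an iron-siderophore binding lipocalin (4.37 ± 0.39). Muc15, a membrane mucin, differed by 5.57 ± 0.35.

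Other members of the leading group were transporters, hormones and proteins of the immune system. Slc38a5, a glutamine transporter encoded on chromosome X, was at 178.1, 447.6, 176.6 and 501.1 on CC2, CC4, UC2 and UC5. Its high arrays ran from 10232 to 24036, a difference of 5.86 ± 0.29. Iapp encodes amylin, a hormone best known from pancreatic beta cells. It was at 12, 99, 97.5 and 214.4 on the low arrays and from 4497 through 11194 to 30935 on the high ones, a difference of 6.05 ± 0.38. C4bp, a brake on complement, differed by 5.35 ± 0.47, by 6.85 within CC and by 3.84 within UC. Ceacam10 (4.98 ± 0.33), Cuzd1 (4.81 ± 0.49) and Tpd52l1 (5.09 ± 0.29) were also among the 15 largest differences. Tpd52l1 was at 21.7 to 30.5 on all 4 low arrays.

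Genes that seal and shape an epithelium formed the broadest block. Of 46 junction and keratin genes on the array (50 were listed), 22 were called higher and 0 lower, 41 lay above 0 and the median difference was 1.49 (1.48 without CC2 and UC5). Among the 30 that passed the filter, 18 were called and the median was 1.97. Epcam, an adhesion protein of epithelial cells, was at 119.8 (CC2), 1069 (CC4), 188.5 (UC2) and 45.7 (UC5) against 2094 to 9426, a difference of 4.68 ± 0.48. Cldn8, a claudin of tight junctions, differed by 5.37 ± 0.42. The cadherins Cdh1 and Cdh16, which join epithelial cells, differed by 3.76 ± 0.30 and 3.85 ± 0.49. Dsp, which anchors keratin at desmosomes, differed by 3.54 ± 0.42. Cldn2, a pore-forming claudin, differed by 3.53 ± 0.64 over all arrays and by 1.75 ± 0.25 without CC2 and UC5. Its low arrays spread from 52.8 (CC2) to 3007 (CC4), and CC4 came nearest to the lowest high array (4686). Markers of luminal and of basal cells were both among the called genes. Krt8, a keratin of luminal cells, differed by 1.92 ± 0.25, Krt5, a keratin of basal cells, by 1.80 ± 0.20, and Trp63, the basal cell regulator p63, by 2.28 ± 0.20.

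**Figure D2:**
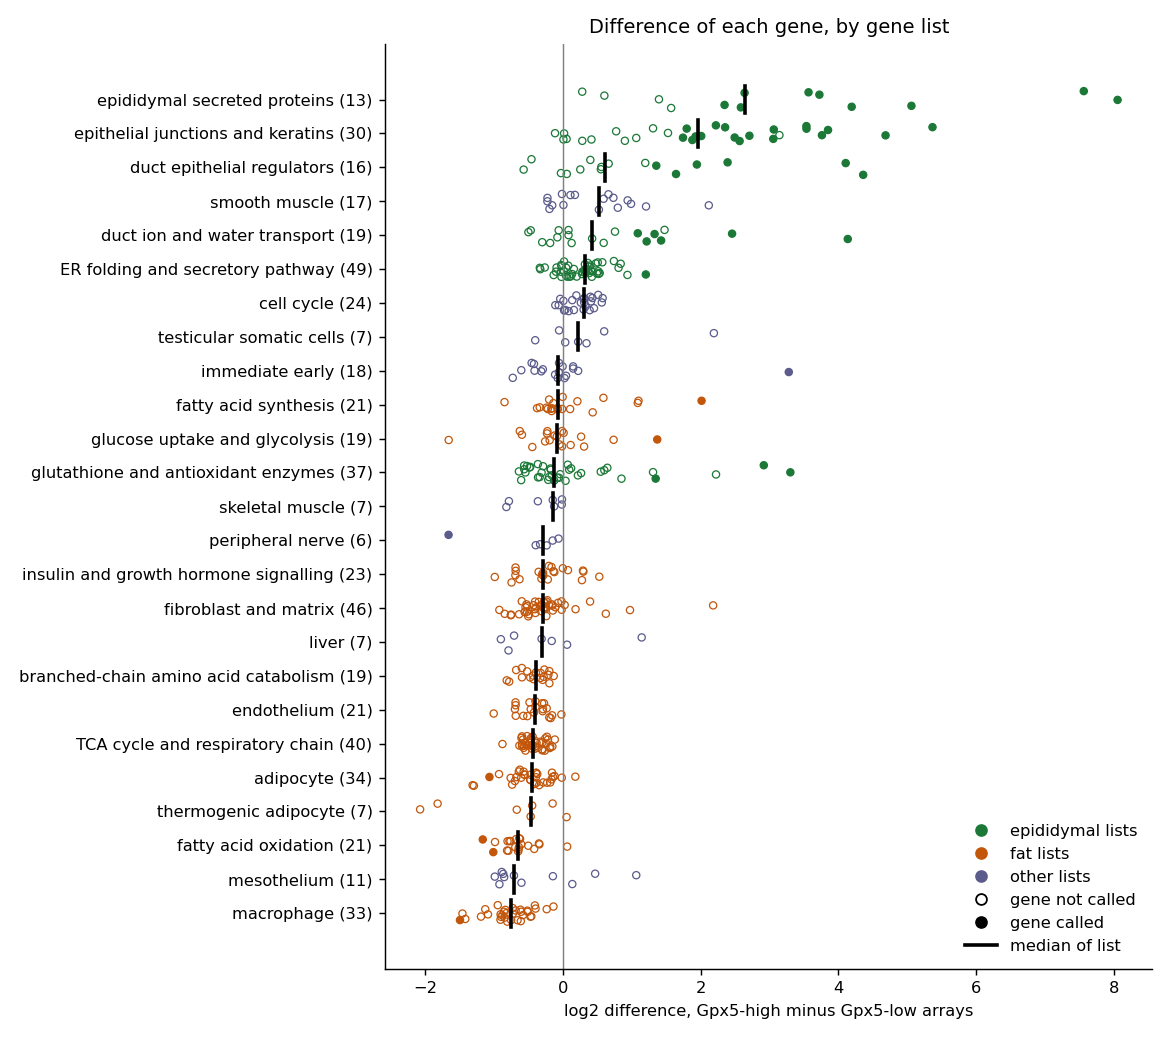
Log2 difference (Gpx5-high minus Gpx5-low) of every gene that passed the filter, in lists of at least 6 such genes with their number in brackets, where filled points are called genes and black bars are list medians. The secreted proteins (median 2.64) and the junction genes (1.97) lie to the right, and the macrophage genes (-0.76) have the lowest median over all 14 arrays.

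Transcription factors and other regulators of duct epithelium followed with smaller counts. Of 28 on the array, 8 were called higher and 0 lower, with a median of 0.55. Among the 16 that passed the filter, 6 were called and the median was 0.61. Ehf, an ETS factor of epithelia, was at 10.4, 300.7, 20.3 and 37.7 on CC2, CC4, UC2 and UC5 and at 823 to 3564 on the high arrays, a difference of 4.36 ± 0.43. Esrp1, an epithelial splicing regulator, differed by 4.11 ± 0.40 and Grhl2, a factor that drives junction genes, by 1.94 ± 0.22. Foxi1, which specifies the acid-secreting narrow and clear cells, differed by 2.39 ± 0.46. Its low arrays fell into pairs, with 64.6 on CC2 and 75.7 on UC2 against 577.1 on CC4 and 567.0 on UC5. The ETS factor Elf3 (1.35 ± 0.20) and the homeobox gene Hoxd9 (1.64 ± 0.25) were called as well. Pax8, a regulator of duct development, was not called. It differed by 1.19 with overlapping sets.

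Of 32 ion and water transport genes on the array, 6 were called higher (4 without CC2 and UC5) and 0 lower, with a median of 0.24. The median of the 19 that passed the filter was 0.42. Kcnk1, a potassium channel, differed by 4.14 ± 0.54 and Fxyd3, a regulator of the sodium pump, by 2.45 ± 0.34. Slc26a3, which exchanges chloride for bicarbonate, differed by 1.42 ± 0.36, and by 0.93 ± 0.31 without CC2 and UC5, where it missed the call. Car12, a carbonic anhydrase, and Clcn5, a chloride transporter of endosomes, differed by 1.33 ± 0.26 and 1.21 ± 0.21. Aqp9, the main water and glycerol channel of principal cells, differed by 1.47 ± 0.36 (0.94 ± 0.41 without CC2 and UC5) but was not called, because UC4 (619.5) lay below CC4 (1154) and UC2 (652.7). Of 51 genes of the endoplasmic reticulum and secretory path on the array, 40 lay above 0 with a median of 0.32, and 1 was called. Among the 49 that passed the filter, 39 lay above 0 and the median was also 0.32. The called gene was Sec11c, a signal peptidase subunit (1.20 ± 0.19).

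The glutathione list, to which Gpx5 belongs by function, was divided. Of 37 genes that passed, 3 were called higher and the median was -0.13. Over all 40 on the array, 3 were called higher and the median was -0.11. Gpx6, which like Gpx5 lies on chromosome 13, was at 63.3, 223.3, 74.2 and 424.1 on CC2, CC4, UC2 and UC5, against 958 to 1905, a difference of 2.92 ± 0.36. Gstm7 and Gstm2, glutathione transferases of the mu class, differed by 3.30 ± 0.39 and 1.34 ± 0.22. Gstm6 of the same class differed by 2.22 ± 0.41 and overlapped between the sets. The plasma enzyme Gpx3 differed by -0.06 ± 0.22. The mu class was thus higher in part, while most antioxidant enzymes were near 0.

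Among genes that passed the filter on dim values, the called genes were spread unevenly over the chromosomes. Shares by chromosome without the filter were not taken. On chromosome X, 20 of 247 described genes (8.1%) were called higher, against 2.44% of all genes and at most 3.45% (chromosome 8) on any autosome. Without CC2 and UC5, the arrays with Xist signal, the count was 24 of 247 (9.72%), against 2.92% of all genes and at most 4.72% (chromosome 10) on any autosome. The median difference of X-linked genes was 0.10. Besides Slc38a5, Cldn2 and Clcn5, the X-linked genes included Rnf128, a ubiquitin ligase, which was at 784.2, 2017, 1006 and 410.3 on CC2, CC4, UC2 and UC5 and at 6990 to 20073 on the high arrays (difference 3.49 ± 0.33). Bex2, Bex3 and Bex4, small proteins of one X-linked family, differed by 2.45 ± 0.34, 1.74 ± 0.22 and 2.21 ± 0.24. The count on chromosome 8 was 15 of 435 and included Defb1, Defb2, Cdh1, Cdh16 and Kcnk1. On chromosome 2 the share was near that of all genes (2.92% against 2.44%). Its 19 called genes of 651 included Lcn5, Lcn8, Lcn2, Ptgds, Cst11, Wfdc15b and Ehf.

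Smooth muscle, which wraps the duct and also lines blood vessels, leaned towards the Gpx5-high arrays without a called gene. Of 17 genes that passed, 12 lay above 0, 0 were called in either direction and the median difference was 0.52. Over all 21 on the array the median was 0.17. Without CC2 and UC5, 5 of the 21 were called higher, and the median of the 17 was 0.73 and that of the 21 was 0.34. Over the whole array, 330 of 12392 genes were called higher without the pair and without the filter. Cnn1, calponin of contracting smooth muscle, was at 1202 on CC2 and 412.5 on UC5 against 52.6 on CC4 and 33.6 on UC2, and at 284.8 to 2267 on the high arrays. Acta2, smooth muscle actin, was at 31000 and 22728 on CC2 and UC5 and at 17263 and 18011 on CC4 and UC2. Its high arrays ran from 27588 to 55639. In these genes the low arrays with Xist signal stood above the other low arrays.

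Markers of the neighbouring organs gave no called gene over all 14 arrays, with or without the filter. Without CC2 and UC5 and without the filter, 2 of 19 germ cell genes were called higher, both of them dim. They were the RNA helicase Ddx4 (2.29 ± 0.55) and the kinase Pgk2 (1.17 ± 0.59). In that setting 330 of all 12392 genes were called higher. Among 20 listed genes of testicular germ cells, 19 were on the array and 2 passed the filter. Of those 2, Sycp3, a protein of meiotic chromosomes, differed by 0.02 ± 0.28, and Prm1, a sperm protamine, by -0.14 ± 0.30. Of 7 testicular somatic genes that passed 0 were called (median 0.22, and 0.48 without CC2 and UC5), and of 3 such genes of ovary, oviduct and uterus 0 were called (median 0.17). The egg coat genes Zp1, Zp2 and Zp3 did not pass the filter and had signals of at most 779.2 on any array. Those of CC2 (290.1, 297.6 and 314.9) lay within the range of the Gpx5-high arrays. On UC5, Zp1 (748.3) and Zp2 (779.2) lay above the highest Gpx5-high array (466.5 and 545.1), and Zp3 (730.2) lay within the range.

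Genes that went with fat mostly differed by far less. Of 34 adipocyte genes that passed, 33 lay below 0, with a median difference of -0.45 (-0.61 without CC2 and UC5), and 1 was called lower. Over all 35 on the array, 34 lay below 0, the median was -0.47 (-0.62 without CC2 and UC5) and 2 were called lower. Cidea, which did not pass the filter, was among these at -4.31 ± 0.91. Adipoq, the adipocyte hormone adiponectin, was at 73935, 88737, 74972 and 82333 on CC2, CC4, UC2 and UC5. Its high arrays ran from 25263 through 46253 to 87601, so the sets overlapped and the difference was -0.39 ± 0.22. Fabp4, which carries fatty acids in adipocytes, differed by -0.39 ± 0.19, and Lpl, which frees them from lipoproteins, by -0.19 ± 0.21. Angptl4, an inhibitor of lipoprotein lipase, was the called gene of those that passed, at -1.07 ± 0.30. It was at 9790 to 16491 on the low arrays and 1539 to 6989 on the high ones. Without CC2 and UC5 its difference was -0.99 ± 0.39, just short of the call. Pck1, which makes glycerol for fat storage, and Aqp7, the glycerol channel of adipocytes, differed by -1.30 ± 0.40 and -1.32 ± 0.35 with overlap. Acvr1c, an activin receptor of adipocytes, differed by -0.93 ± 0.17 and fell short of the limit of 1. Most adipocyte genes were thus somewhat lower on the Gpx5-high arrays, and few stood clear of the spread between arrays.

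Fatty acid oxidation, the TCA cycle with the respiratory chain and branched-chain amino acid breakdown were lower together, in small steps. Of 21 oxidation genes, 20 lay below 0 (median -0.65) and 2 were called lower. Acadl, a long-chain acyl-CoA dehydrogenase, was at 17100 (CC2), 6643 (CC4), 6358 (UC2) and 11550 (UC5), against 2716 to 5455, a difference of -1.17 ± 0.25. Acadvl, the very-long-chain enzyme, differed by -1.02 ± 0.24. Without CC2 and UC5 the 2 differences were -0.61 ± 0.23 and -0.69 ± 0.29, neither was called, and the list's median was -0.43. All 40 genes of the TCA cycle and respiratory chain lay below 0, with a median of -0.44 (-0.28 without CC2 and UC5), and 0 were called. All 19 genes of branched-chain amino acid breakdown lay below 0 as well (median -0.40), and 0 were called. Of 21 genes of fatty acid synthesis, 14 lay below 0 and the median was -0.08 (-0.17 without CC2 and UC5). Its 1 called gene, the desaturase Fads2, was higher in the Gpx5-high arrays by 2.01 ± 0.26. Fasn, fatty acid synthase, differed by -0.02 ± 0.32. In the glycolysis list (median -0.09) the 1 called gene was Aldoc, an aldolase, which was higher by 1.37 ± 0.28.

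CC2 and UC5, the low arrays that carried Xist, also carried signal of heat-producing adipocytes that the other arrays lacked or held at much lower levels. Ucp1, the uncoupling protein of brown fat, did not pass the filter over all arrays. It was at 8935 on CC2 and 17041 on UC5, at 44.9 on CC4 and 642.4 on UC2, and at 18.7 to 198.8 on the high arrays. Cidea, a lipid droplet protein of brown fat, was at 14488 and 7923 on CC2 and UC5 and at most 332.4 on the other 12 arrays. It did not pass the filter either. Without the filter it met the rule for a lower call, at -4.31 ± 0.91, and at -1.83 ± 0.60 without the pair, where its low arrays were at 332.4 (CC4) and 299.0 (UC2) and its high arrays at 16.4 to 207.0. Cox8b and Cox7a1, muscle and brown fat subunits of cytochrome oxidase, differed by -2.08 ± 0.62 and -1.82 ± 0.50 over all arrays and by -0.54 ± 0.51 and -0.66 ± 0.46 without CC2 and UC5. Cox8b was at 11258 and 7788 on CC2 and UC5, at 1769 and 663.2 on CC4 and UC2, and at 419.4 to 2212 on the high arrays. Pdk4, a kinase that turns the cell from glucose to fatty acids, differed by -1.66 ± 0.54 over all arrays and by -0.50 ± 0.43 without the pair. Of the 16 listed thermogenic genes 12 were on the array, 7 passed the filter and 0 of the 7 were called. The median of the 7 was -0.47, and -0.54 without CC2 and UC5, so the list as a whole did not follow Cox8b and Cox7a1. Over all 12 the medians were -0.64 and -0.56. The position gene Hoxa10 was at 1526 and 1122 on CC2 and UC5 and at most 397.8 elsewhere, and Hoxa9 was at 3853 and 2126 there and at most 1441 elsewhere. The low set therefore held 2 kinds of array in these genes, and what part this had in the lower oxidation genes was not tested beyond the values without the pair.

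Macrophage genes were lower as a block. All 33 that passed lay below 0, with a median of -0.76, and 1 was called. Without CC2 and UC5 the median was -0.49, no longer below those of the adipocyte (-0.61), endothelial (-0.57) and thermogenic (-0.54) lists. Cd163, a scavenger receptor of resident macrophages, was at 3125, 1738, 1642 and 2103 on CC2, CC4, UC2 and UC5 and from 243.2 through 529.1 to 1278 on the high arrays. Its difference was -1.499 ± 0.357, and -1.20 ± 0.46 without the pair. Lyz1, a lysozyme whose transcript is nearly identical to that of Lyz2, differed by -2.09 ± 0.46 on the called probe set (-1.38 ± 0.53 without the pair). Its brighter probe set, the one used in lists, differed by -1.42 ± 0.40 and was not called. The values by array are those of the called probe set. Its low arrays were at 26145 (CC2), 14211 (CC4), 6377 (UC2) and 25301 (UC5), and its high arrays ran from 729 to 5634. The 2 genes cannot be told apart by such probes. Lyz2 differed by -1.46 ± 0.28 and was not called, because UC2 (7764) lay below the highest high array (7846). Ctss, a protease of macrophage lysosomes, differed by -1.09 ± 0.35 over all arrays and by -0.45 ± 0.34 without the pair.

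Endothelial genes were lower as a block too. All 21 that passed lay below 0 with a median of -0.40 (-0.57 without CC2 and UC5), and 0 were called. Cdh5, the cadherin of vessel walls, was at 3790, 4399, 2567 and 2802 on CC2, CC4, UC2 and UC5 and at 573.8 to 2851 on the high arrays, a difference of -1.01 ± 0.24 with slight overlap. Of 46 fibroblast and matrix genes, 40 lay below 0 (median -0.29) and 0 were called. Fn1, fibronectin, differed by -0.93 ± 0.17. Against the direction of that list, the microfibril protein Mfap4 differed by 2.18 ± 0.57 with overlap. Of 11 mesothelial genes, which mark the lining of the abdominal cavity, 8 lay below 0. Their median moved from -0.72 to -0.12 without CC2 and UC5, and 0 were called over all arrays (1 higher and 0 lower without the pair). The remaining lower genes included S100b, a calcium-binding protein of glia and adipocytes, which was at 2145 (CC2), 935.5 (CC4), 709.8 (UC2) and 1808 (UC5) against 252.6 to 646.8 (difference -1.67 ± 0.33, and -1.05 ± 0.35 without CC2 and UC5). Mndal, an interferon-induced nuclear protein, differed by -1.37 ± 0.17 and Qpct, an enzyme that modifies peptide ends, by -1.26 ± 0.25.

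A few genes outside tissue markers differed. Egr2, an immediate early transcription factor, was at 668.3, 364.7, 310.8 and 756.0 on CC2, CC4, UC2 and UC5 and at 3419 to 9553 on the high arrays. Its difference was 3.28 ± 0.26, and it was the 1 called gene of 18 in its list (median -0.07, and 0.07 without CC2 and UC5). Of 24 cell cycle genes, 21 lay above 0 with a median of 0.30 (0.51 without CC2 and UC5), and 0 were called. Mcm7, a helicase subunit of DNA replication, differed by 0.51 ± 0.15. Alb and the other liver genes (7 passed, 0 called) had a median of -0.31, or -1.25 without CC2 and UC5, when UC2 made up 1 of the 2 low arrays left.

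The low arrays were not equally low. Over the 199 genes called higher, the median signal as a share of the Gpx5-high median was 22.0% on CC2, 23.1% on UC2, 24.2% on UC5 and 31.9% on CC4. CC4 was the highest of the 4 for 102 of the 199 genes. On CC4, 26 genes lay under 10% of the high median and 26 at 50% or more, against 57 and 11 on CC2. Epithelial genes were not raised on CC4 in equal measure. Cldn2 (3007), Gstm7 (3617), Cdh16 (1909) and Cuzd1 (2994) were all higher there than on CC2, UC2 and UC5. Lcn5 (166.5) was highest on CC4 too, at a level far below the high arrays. Adam7 (21.3), Muc15 (33.7) and Fxyd3 (83.0) were lowest on that same array. Such shares pool genes that other cells of the pad may also express. For some genes they were far lower: 0.1% to 0.6% for Adam7, 0.1% to 1.3% for Lcn5 and 1.0% to 1.4% for Tpd52l1 over the 4 low arrays. Other epididymal genes kept larger shares. Lcn8 was at 20.6% to 29.4% and Ptgds at 7.1% to 24.1% over the low arrays. Foxi1 was at 43.0% on CC4 and 42.2% on UC5, but at 4.8% on CC2 and 5.6% on UC2. Epcam was at 14% on CC4 and at 0.6% to 2.5% on the others. Whether any epididymal epithelium was left in the 4 low pads was not tested, and they are called by the rule, as Gpx5-low.

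**Figure D3:**
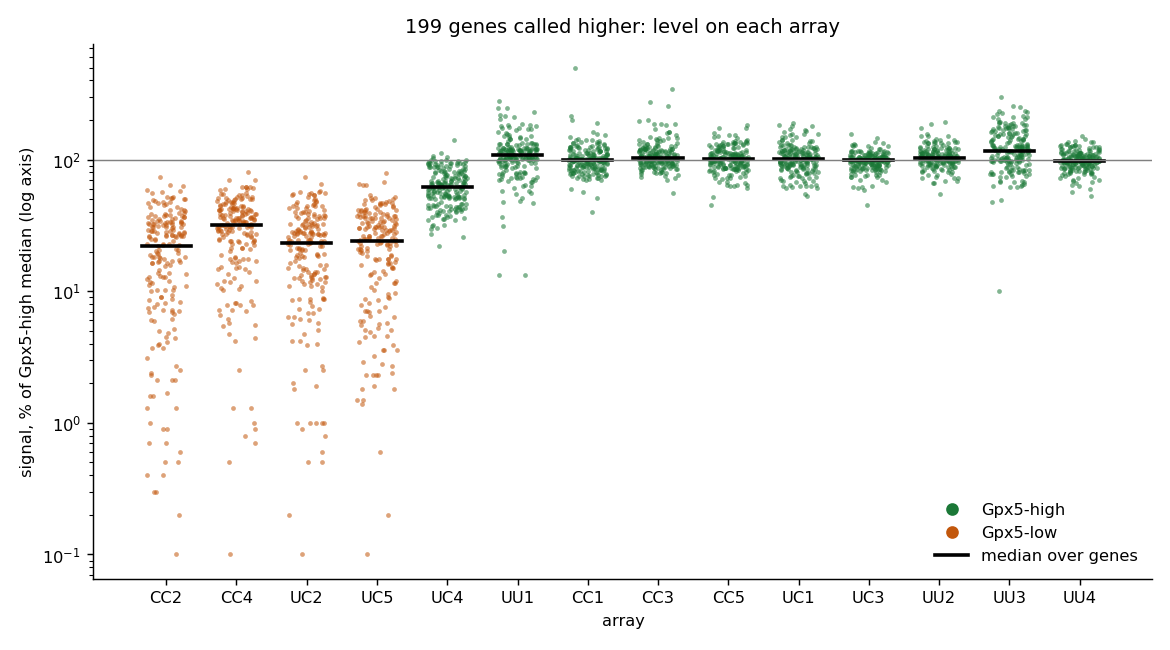
Signal of each of the 199 genes called higher, as a percentage of its median over the 10 Gpx5-high arrays (log axis), with 1 point per gene and a black bar at the median. The bars lie at 22.0% to 31.9% on the low arrays, at 61.8% on UC4 and at 98.2% to 116.9% on the other 9 high arrays.

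The high arrays varied as well. UC4 had a median of 61.8% and was the lowest of the 10 high arrays for 132 of the 199 genes, although its Gpx5 signal of 67097 was among the highest. On UC4, 59 of the 199 genes lay under 0.5 times the median of the other high arrays. They included Defb2 (1509), Lcn5 (4021), Cdh16 (2695) and Epcam (2094). UC4 also had one of the 3 highest 3' over 5' ratios and an Adipoq signal of 87601, the highest of the high arrays, and the part of either in its lower epithelial signal was not tested.

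UU1 showed the other kind of departure. Its Gpx5 signal of 5711 was the lowest of the high set, yet its median over the 199 genes was 107.6%. It lay under 0.5 times the median of the other high arrays for 8 genes. Among them were Lypd8 (695.3), Cst11 (383.0), Pate6 (4173), Lcn5 (4181), Lcn8 (437.5), Rhcg (599.2) and Adam7 (9173). Lypd8 is a small protein of the Ly6 type and Rhcg an ammonium channel. In contrast, UU1 was the highest of all arrays for Iapp (30935), Foxi1 (2895), Cd24a (29644), Cdh16 (17899) and Aldoc (3045). The called genes thus did not move as 1 block on UU1. Lep, the adipocyte hormone leptin, was at 85.6 on UU1 and at 2747 to 15556 on the other 13 arrays.

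Of the 258 higher probe sets, 237 had a difference of at least 1 within CC and within UC alike. Of the 15 lower ones, 6 had -1 or less in both. The call was made on the same arrays and its rule of no overlap fixes the sign in both groups. These counts therefore describe sizes and do not show that the calls repeat. Adam7 differed by 8.06 within CC and 8.05 within UC, Clu by 3.46 and 3.67, and Epcam by 4.34 and 5.03. Limma's interaction term, the difference within UC minus that within CC, called 0 of 12227 probe sets (0%) at an adjusted p under 0.05, and 297 had an unadjusted p under 0.05. The smallest adjusted p by limma was 0.28. Called genes with unlike sizes included C4bp (6.85 in CC and 3.84 in UC), Depdc7 (2.78 and 5.09) and the amino acid transporter Slc7a5 (3.794 and 1.503). Leaving out 1 array gave 2 interaction calls without CC4, 3 without UC2 and 2 without UC5. With 2 low arrays in each group, these fits do not show that the differences are equal.

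**Figure D4:**
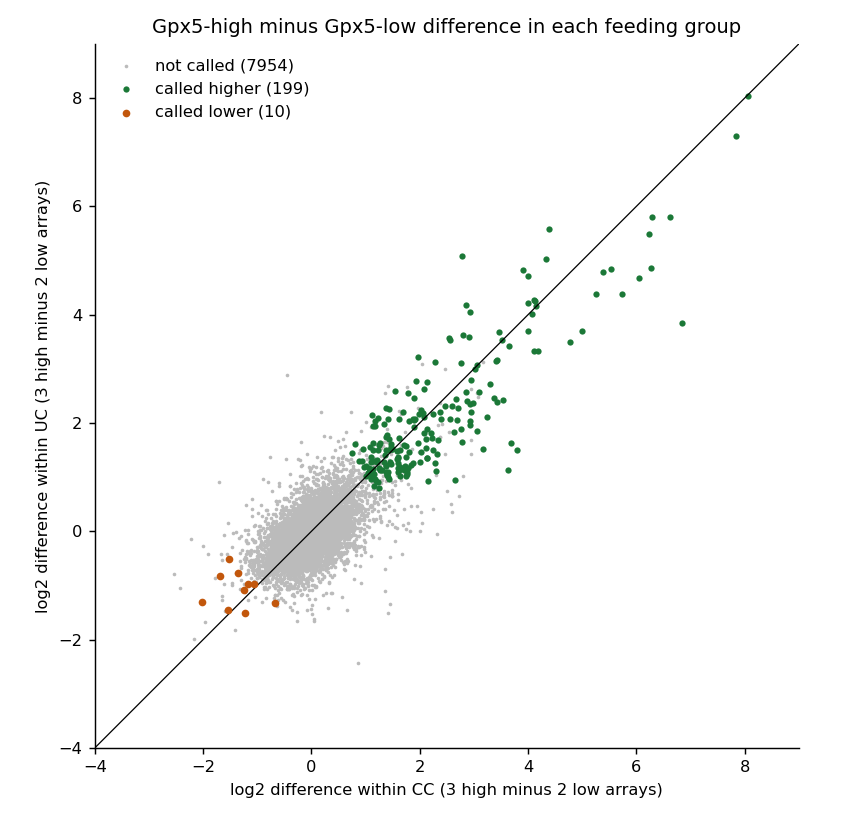
Log2 difference (Gpx5-high minus Gpx5-low) within UC against that within CC, 1 point per gene, with the line of equality. The 199 genes called higher (green) lie along the line up to Adam7 at about 8 on both axes, and the 10 called lower (orange) lie at negative values on both. The sign of a called gene is fixed in both groups by the rule of no overlap.

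The uneven spread of the low arrays over the feeding groups moved the group comparisons of epithelial genes. With all UU arrays Gpx5-high, the secreted proteins had a median UU minus CC difference of 1.08 on the log2 scale without the Gpx5 split in the model and of -0.33 with it. The junction genes had medians of 0.93 and 0.09. Adipocyte genes moved from -0.73 to -0.47, macrophage genes from -0.87 to -0.57 and fatty acid oxidation genes from -0.52 to -0.25. Over all genes the medians were 0.06 and 0.04. The UC minus CC differences were the same in both fits, since each group held 2 low and 3 high arrays.

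**Figure D5:**
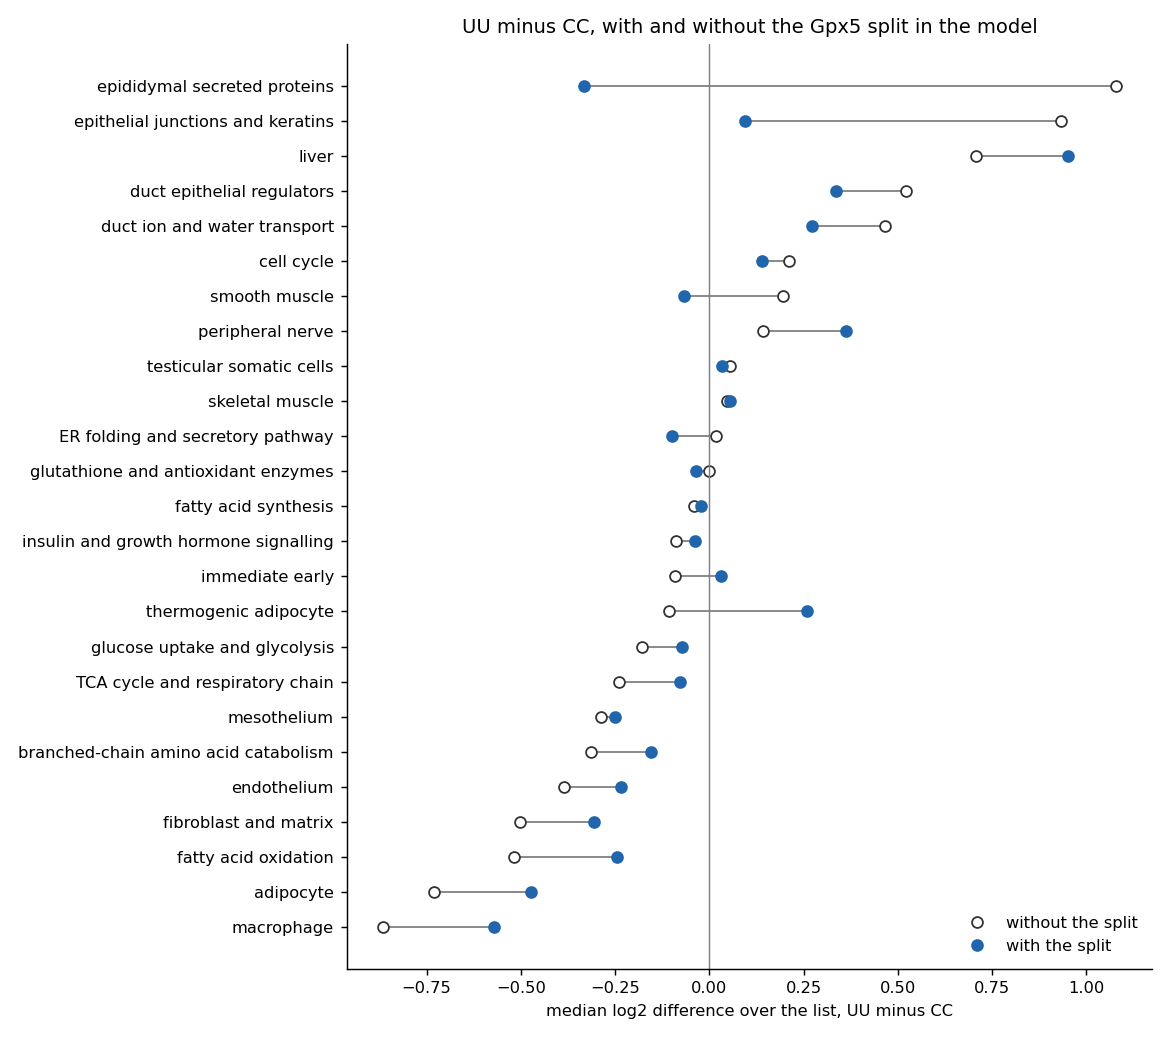
Median log2 UU minus CC difference of each gene list with at least 6 genes, without (open) and with (blue) the Gpx5 split as a covariate. The secreted proteins move from 1.08 to -0.33 and the macrophage genes from -0.87 to -0.57.

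For single genes the feeding comparisons called little in either fit. With the split in the model, limma called 0 of 12227 probe sets (0%) for UC minus CC, UU minus CC and UC minus UU at a Benjamini-Hochberg adjusted p under 0.05. Leaving out UU3 gave 11 calls for UC minus UU, and leaving out any other single array gave at most 2 in any of the comparisons. The counts at an unadjusted p under 0.05 were 1377, 1436 and 1442, and the smallest adjusted p values by limma were 0.0853, 0.0953 and 0.0594. Without the split, limma called 0, 0 and 65 probe sets. The 65 (0.532%) were in UC minus UU, 59 of them higher in UC, and 0 of the 65 were among the probe sets called between the Gpx5 sets. Those calls made up only 2.11% (higher) and 0.123% (lower) of all probe sets, so 0 of 65 lies near the share over all of them. It does not show that the feeding calls are separate from the split. Lcn5 differed by 1.58 between UU and CC without the split (limma, adjusted p = 0.715) and by -1.45 with it (adjusted p = 0.315).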

How the data were processed

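RNA given as that of epididymal fat from 14 mice was measured on 1-colour Affymetrix arrays. Each deposited value is a probe set's intensity, unlogged. The submitters' processing notes name GCOS 1.3 and MAS5 as the tools the authors used. The 2% trimmed mean signal was 1500.5 to 1500.6 on every array, so levels are relative to a common scaling. Of 22690 probe sets, 20380 had 1 gene symbol in the platform annotation, and 20351 of these were updated by Entrez ID to RefSeq. Arrays were parted at a Gpx5 signal of 2000 (probe set left out afterwards). Values were log2(signal + 32), and the dimmest 40% of probe sets by mean were left out. Differences are coefficients ± SE of limma 3.58.1 (R 4.3.3) in a model of feeding group and split with 10 residual degrees of freedom, and the spread is shared by all arrays. Gene lists take the probe set of highest mean per gene. Named genes were drawn from Gpx5, up to 15 of the largest called differences in each direction (the called probe set of highest mean) and the X and Y indicators. They were also drawn from up to 6 largest differences of each epididymal or fat list and up to 3 of highest mean of each other list. Not all of these are described: Meox2, Itsn1, Themis2, Ccn3, Ptger3 and Hspa12b were also called lower, with differences of -1.126 to -1.001. The other genes named (Acta1, Adipoq, Cd24a, Cidea, Cnn1, Egr2, Fabp4, Fasn, Gpx3, Hoxa9, Hoxa10, Krt5, Krt8, Lcn8, Lep, Lpl, Lypd8, Npc2, Pax8, Ptgds, Rhcg, Ddx4, Pgk2, Depdc7, Slc7a5, Rnf128, Trp63, Ucp1 and the Bex and Zp genes) were chosen after their values were seen. The arrays, members and 31 gene lists were chosen with earlier results of these data known. Limma p-values were adjusted by Benjamini-Hochberg over 12227 probe sets. The fit was tested on simulated data. Alternatives changed the pseudocount, filter, scaling, covariates, Gpx5 limit and arrays used. Promoters were taken from RefSeq windows. Figures were drawn with matplotlib 3.10.9.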

Additional observations from a re-analysis of the deposited data

Results flagged for a closer look

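Single arrays far from the rest of their set were sought in 260 groups of values (the high or the low arrays of a reported gene or list), and 33 were found. Chance gives about 1 in 20 for independent groups, a rate that does not apply directly here, since the groups share the same 14 arrays and some genes were reported because 1 array stood out. UC4 was the low one of the Gpx5-high arrays for Defb2 (1508.7), Tpd52l1 (797.7), Ehf (823.4), Esrp1 (542.7), Cdh16 (2695.3), Cdh1 (2366.4), Krt18 (2224.6), Krt8 (3734.4), Kcnk1 (2976.0) and Aqp9 (619.5). The same held for Gstm7 (5667.4), Gstm6 (358.0), Gstm2 (6427.7), Fads1 (4070.6), Mfap4 (204.4) and Bex4 (976.9). Its mean log2 value was 10.074 over the duct regulators (10.502 to 10.968 on the other high arrays) and 10.587 over the junction and keratin genes (11.445 to 11.806).

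UU1 was the low one for Pate6 (4172.7), Cst11 (383.0), Lypd8 (695.3) and Lep (85.6), and the high one for Aldoc (3045.2, with 1435.4 the next). Its mean over fatty acid synthesis was 12.227 (12.681 to 13.173 on the other high arrays). UU3 was low for Rhcg (125.9), for the TCA cycle and respiratory chain (12.76 against 13.094 to 13.405) and for endothelium (10.035 against 10.445 to 10.634). UC1 was low for Cdh5 (573.8), and CC5 was high over the skeletal muscle genes (11.229 against 8.962 to 9.701).

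Among the 4 low arrays, UC2 stood apart over the liver genes (13.31 against 9.334 to 9.986), Trp63 (255.8) and Fn1 (21720.0), and CC4 was high for Npc2 (32791.2). Outside the single-gene probe sets, 17 of 2246 probe sets with no or several symbols were higher by the call rule and 4 were lower.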

How the results depend on the processing

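The count of 258 higher probe sets became 473 within CC alone, 403 within UC alone, 77 at a Gpx5 limit of 1000, 118 at a difference of 2 or more and 477 with no least difference. Leaving out 1 array at a time gave 254 to 356. The count of 15 lower probe sets became 9 at the larger pseudocount, 27 with no filter, 8 without the dimmest 60%, 36 without the feeding covariate, 140 within CC, 110 within UC, 4 at the limit of 1000, 1 at 2 or more and 191 with no least difference. Leaving out 1 array at a time gave 13 to 75, with 23 without CC1, 29 without CC4, 42 without UC4 and 75 without UC2. In limma's feeding comparisons, UC minus CC moved from 0 to 1 in the 10 high arrays alone and to 2 at an adjusted p under 0.1 (0 to 1 with 1 array left out). UC minus UU moved from 0 to 7 at the larger pseudocount, 19 without the dimmest 60%, 21 by median centring, 12 by quantile scaling, 4 at 1 probe set per gene, 1 without the arrays with Xist, 25 at the limit of 1000, 95 with the 3' over 5' ratio as a covariate, 65 without the split, 1 in the high arrays alone and 51 at an adjusted p under 0.1. Leaving out 1 array gave 0 to 11, with 11 without UU3. UU minus CC moved from 0 to 1 without the arrays with Xist, 2 with the 3' over 5' ratio, 1 in the high arrays alone and 2 at an adjusted p under 0.1 (0 to 2 with 1 array left out). The interaction gave 0 to 3 with 1 array left out (2 without CC4, 3 without UC2, 2 without UC5). The cause of these moves was not tested.

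With the replicate number as a block, the counts were 235 higher, 17 lower and 49 for UC minus UU. Over 13 same-numbered pairs the correlations of deviations were -0.254 to 0.419, with 6 over 0.1, and an array correlated best with its own number in 9 of 26 comparisons. These values do not settle whether the numbers pair the mice, and the main fits did not use the numbers as pairs.

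No named gene that met the call rule changed sign under any alternative. List medians near 0 did under at least 1, namely those of fatty acid synthesis, glycolysis, immediate early genes, liver, skeletal muscle, lymphocytes, mast cells and eosinophils, germ cells, testicular somatic cells and the ovary list. The median of the X and Y indicators, 1.37, was -0.02 without the arrays with Xist. The 4 low arrays, 2 of them with Xist signal, limit every value here, and no low array was in UU.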
